A study of Mus musculus with 8 samples.

Results

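A set of 10 mouse genes was examined whose signal was far lower in sorted regulatory T cell precursors labelled Nr4a-TKO than in wild-type regulatory T cells and in precursors labelled Foxp3-KO. They were chosen on exactly those 2 differences, and are Arhgap20, Pyroxd2, Gsta4, Cybrd1, Selp, Rasl11b, Lypd6b, Lad1, Pla2g4f and C1ql3. The arrays named 21154 genes, of which 13496 were bright enough to test, all 10 among them. The working name of the set, genes lost in the Nr4a-TKO arrays alone, held for 3 of them. Pyroxd2, Lypd6b and Rasl11b were present in conventional T cells and lowest in Nr4a-TKO. The other 7 were also at least 4-fold lower in conventional T cells than in both groups in which they were high, so they were low in 2 of the 4 populations.

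Expression was read on 8 one-colour arrays, from 10 ng of RNA each, of CD4 single-positive cells sorted from mouse thymus and lysed in RNAiso without culture. WT Tconv were wild-type cells low in CD25. WT Treg were wild-type cells positive for Foxp3. Nr4a-TKO preTreg carried the label of an Nr4a knockout and were gated on high CD25, GITR and Nr4a3, and Foxp3-KO preTreg carried that of a Foxp3 knockout and were gated on high CD25 and a Foxp3 reporter. Each population had 2 samples that the series calls biological replicates, and the number of mice behind each, their age, strain and alleles, and which parts of the genes were deleted, were not given in the sources used here. Precursors of wild-type mice were not among the samples, so effects of genotype and of the gate cannot be told apart. All arrays lay on 1 slide, the first row holding WT Tconv with Nr4a-TKO and the second WT Treg with Foxp3-KO, so both differences that chose the genes run across the rows, where row and group cannot be told apart. Spike-in probes averaged 3.61 to 3.94 log2 units in the first row and 3.36 to 4.04 in the second. Of the genes tested, 44 were at least 4-fold higher in both groups of the second row than in both of the first, 7 of them members, and 3 were the other way.

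Regulatory T cells arise in the thymus from CD4 single-positive precursors that meet self-antigen, which raises CD25 and GITR and then Foxp3, the transcription factor that fixes the lineage. The Nr4a family are nuclear receptors that are switched on rapidly by T cell receptor signals and are known to be needed for Foxp3 induction. The 10 genes belong to no single pathway. Arhgap20 and Rasl11b act in small GTPase signalling, Gsta4, Pyroxd2, Cybrd1 and Pla2g4f are enzymes or predicted enzymes of redox, iron and lipid metabolism, and Selp, Lypd6b, Lad1 and C1ql3 encode surface, anchoring or secreted proteins.

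The arrays had 48.5% to 53.0% of their spots well above background, and the correlation between replicates across tested genes, which are not independent, ran from 0.977 (Foxp3-KO) to 0.997 (WT Tconv). The 8 CD4 T cell markers on the array were above background in every group. Their summed signal, in units of the 75th percentile of the array, was lowest in Nr4a-TKO (818 to 873). It was 1114 to 1142 in WT Tconv, 921 to 950 in WT Treg and 942 to 1073 in Foxp3-KO. Foxp3 had a mean level of -3.76 for WT Tconv, 4.70 for WT Treg, 3.35 for Nr4a-TKO and 1.68 for Foxp3-KO. In the same order Nr4a1 was at 6.67, 7.29, 7.67 and 7.22, Nr4a2 at -1.70, 1.54, 3.62 and 1.39, and Nr4a3 at -1.71, 0.16, -0.45 and -0.78. The means of Nr4a1 and Nr4a2 were thus highest in the arrays labelled as their knockout. The probes may lie outside the deleted parts, so these levels do not check the genotype, and the group names are those of the labels. Summed B cell marker signal, in units of the 75th percentile of the array, was 0.998 to 1.01 in WT Tconv, 3.06 to 3.94 in WT Treg, 47.3 and 12.4 in Nr4a-TKO replicates 1 and 2, and 12.8 and 1.80 in Foxp3-KO replicates 1 and 2. Of 9 such markers 6 were below background for WT Tconv, 4 for WT Treg, 2 for Foxp3-KO and 0 for Nr4a-TKO. Of the 7 tested, 7 were called higher in Nr4a-TKO than in WT Tconv (21.1% of all genes tested were). Against WT Treg 6 were higher (18.5%), against Foxp3-KO 0 (17.8%), and 0 were lower in any of these. Of 12 myeloid markers 5 were below background for WT Tconv, 1 for WT Treg and 0 for either knockout, and 10 were called higher in Nr4a-TKO than in WT Tconv and 2 lower (median of the list 4.38), 2 higher and 1 lower than in WT Treg (median 2.17) and 1 higher than in Foxp3-KO (median 1.01). Their sum, 336 to 389 over the 8 arrays, overlapped between groups. With 5 of 12 below background in WT Tconv, the sum there rests on the brighter markers. It does not show how the dimmer ones moved. The part of these cells in the results was not tested. In these bulk samples fewer cells that carry a transcript and less of it per cell cannot be told apart.

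In what follows a level is log2 of the processed signal minus the 75th percentile of that array, so 0 is that percentile, and the background level of an array, the dimmest signal well above background, lay between -4.68 and -3.90. Levels compare samples for 1 probe and do not rank genes. A difference is on the log2 scale with its SE, from a limma fit with 2 arrays in each group, and a gene is called at a Benjamini-Hochberg adjusted p under 0.05. Where no probe of a gene was well above background on either array of a group, the fold is a lower bound against the background level. The adjusted p beside a bound comes from the fit of the measured, undetected signal and does not test the bound. Such a bound holds for this signal only. Another background correction, normexp, which adds an offset of 50 to every signal, made the drop in Nr4a-TKO smaller for all 10 genes, and its folds and bounds are given beside each. The differences of Nr4a-TKO from WT Treg and Foxp3-KO chose the genes and are given as a description without a test.

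Arhgap20, which encodes a GTPase-activating protein with a Ras-associating domain, was bright in WT Treg and Foxp3-KO and dim in the other populations. Its level was -2.61 and -2.50 in WT Tconv, 4.12 and 3.83 in WT Treg, -2.24 and -1.68 in Nr4a-TKO, and 3.95 and 4.06 in Foxp3-KO. WT Treg and Foxp3-KO overlapped, and every array of the other groups lay far below them. The group mean in Nr4a-TKO was 61.2-fold below WT Treg and 62.5-fold below Foxp3-KO (36.1 and 36.9 with normexp). WT Treg stood 92.0-fold above WT Tconv (6.52 ± 0.21, adjusted p = 0.000115) and Foxp3-KO 94.0-fold (6.55 ± 0.21, adjusted p = 0.000176). Between Nr4a-TKO and WT Tconv the difference was 0.59 ± 0.21 (adjusted p = 0.0601), which passed without Nr4a-TKO replicate 1 (0.87, adjusted p = 0.0228).

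Rasl11b, a small GTPase of the Ras family, showed a smaller and different step. Its level was 0.00 and -0.10 in WT Tconv, 1.11 and 0.83 in WT Treg, -2.01 and -1.70 in Nr4a-TKO, and 1.32 and 1.69 in Foxp3-KO. The groups did not overlap, and Nr4a-TKO was the lowest. It lay 7.07-fold below WT Treg and 10.3-fold below Foxp3-KO (4.29 and 6.14 with normexp), and also 3.49-fold below WT Tconv (-1.80 ± 0.18, adjusted p = 0.00154). WT Treg was 2.03-fold above WT Tconv (1.02 ± 0.18, adjusted p = 0.0109), a call that ended without WT Tconv replicate 1 (adjusted p = 0.0585), WT Tconv replicate 2 (0.0715) or WT Treg replicate 1 (0.0585). Foxp3-KO was 2.95-fold above WT Tconv (1.56 ± 0.18, adjusted p = 0.0061), and at 1.51 without WT Tconv replicate 2 this did not pass (adjusted p = 0.0533).

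Pyroxd2, a mitochondrial protein with an oxidoreductase domain, was far lower in Nr4a-TKO than in every other group. It was at 1.98 on both WT Tconv arrays, 0.69 and 1.40 in WT Treg, -4.07 and -2.98 in Nr4a-TKO, and 1.30 and 2.01 in Foxp3-KO. The Nr4a-TKO arrays stood apart from the other 6, which spanned 0.69 to 2.01. The group mean there was 23.8-fold below WT Treg, 36.2-fold below Foxp3-KO and 45.5-fold below WT Tconv (-5.51 ± 0.45, adjusted p = 0.00094). With normexp these were 9.31, 13.9 and 17.3. WT Treg (-0.93 ± 0.45, adjusted p = 0.163) and Foxp3-KO (-0.33 ± 0.45, adjusted p = 0.607) did not pass against WT Tconv.

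Gsta4, a glutathione transferase that conjugates products of lipid peroxidation, followed the step of Arhgap20. It was at -3.95 and -3.71 in WT Tconv, 1.27 and 1.30 in WT Treg, -2.97 and -3.17 in Nr4a-TKO, and 0.41 and 0.35 in Foxp3-KO. No groups overlapped, in the order WT Treg, Foxp3-KO, Nr4a-TKO, WT Tconv. Nr4a-TKO was 20.4-fold below WT Treg and 10.9-fold below Foxp3-KO, yet 1.70-fold above WT Tconv (0.76 ± 0.11, adjusted p = 0.00488). With normexp the drops were 8.39-fold and 4.85-fold. WT Treg was 34.6-fold above WT Tconv (5.11 ± 0.11, adjusted p = 7.94e-05) and Foxp3-KO 18.5-fold (4.21 ± 0.11, adjusted p = 0.000176). Foxp3-KO was 1.87-fold below WT Treg (-0.90 ± 0.11, adjusted p = 0.0172), which did not pass without WT Treg replicate 1 (adjusted p = 0.0709), without replicate 2 (0.0989) or in a fit of those groups alone (0.103).

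Cybrd1, a membrane ferric reductase known from iron uptake in the gut, was near background where it was low. Its brighter probe was at -3.34 and -3.85 in WT Tconv, -0.01 and -0.35 in WT Treg, -4.44 and -4.18 in Nr4a-TKO, and -0.83 and -0.93 in Foxp3-KO. All 4 groups were separate, with Nr4a-TKO 17.5-fold below WT Treg and 10.8-fold below Foxp3-KO (4.89 and 3.30 with normexp). WT Treg was 10.7-fold above WT Tconv (3.41 ± 0.21, adjusted p = 0.000494) and Foxp3-KO 6.55-fold (2.71 ± 0.21, adjusted p = 0.00177). Nr4a-TKO was called below WT Tconv (-0.72 ± 0.21, adjusted p = 0.0357), but 9 of 19 other settings ended that call, 5 of them by leaving out 1 array (WT Tconv replicate 1 or either Nr4a-TKO or Foxp3-KO replicate), with adjusted p from 0.0503 to 0.272. A dimmer second probe was above background on both WT Treg arrays (-2.05 and -2.57), on WT Tconv replicate 2 (-3.86) and on Foxp3-KO replicate 2 (-2.09), and on neither Nr4a-TKO array. With the mean of both probes the difference of Nr4a-TKO from WT Treg was -3.38, beside -4.13 for the brighter probe.

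Pla2g4f, a cytosolic phospholipase A2 that releases fatty acids from membrane lipids, was not well above background in either WT Tconv or Nr4a-TKO. Its measured level there was -6.43 and -6.59, and -6.64 and -5.52, below the background level of each array. It was at 1.54 and 1.42 in WT Treg and 0.24 and 0.44 in Foxp3-KO. Nr4a-TKO was at least 69.2-fold below WT Treg and at least 31.3-fold below Foxp3-KO, bounds that fell to 14.3 and 7.11 with normexp. WT Treg was at least 64.6-fold above WT Tconv (adjusted p = 0.000232) and Foxp3-KO at least 29.2-fold (adjusted p = 0.000516), and no fold is given between the undetected groups. Foxp3-KO and WT Treg did not overlap (-1.14 ± 0.35, adjusted p = 0.122), and this passed without Nr4a-TKO replicate 1 or 2 (adjusted p = 0.0228 in each) and with normexp (0.00441).

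Selp encodes P-selectin, the adhesion receptor of activated platelets and endothelium. Its probe, printed 10 times on each array, was at -4.52 and -4.78 in WT Tconv, where 2 and 3 spots were above background, and at -4.18 and -3.81 in Nr4a-TKO, where 7 and 9 were. It was at -0.61 and -0.31 in WT Treg and -0.82 and -0.54 in Foxp3-KO, which overlapped. Nr4a-TKO was 11.6-fold below WT Treg and 9.96-fold below Foxp3-KO (3.74 and 3.34 with normexp). WT Treg was at least 16.8-fold above WT Tconv (adjusted p = 0.000256) and Foxp3-KO at least 14.4-fold (adjusted p = 0.000482). Nr4a-TKO was at least 1.45-fold above WT Tconv (adjusted p = 0.0362), a call that 6 of 19 other settings ended. They were leaving out WT Tconv replicate 1 (adjusted p = 0.0770), WT Tconv replicate 2 (0.166) or Nr4a-TKO replicate 2 (0.144), normexp (0.423), no filter on dim probes (0.0649) and an intensity trend (0.0502). Of 11 platelet markers 6 to 8 were below background in each group, Ppbp, Gp1ba, Gp5, Gp6, Gp9 and Itga2b in all 4, and their summed signal was 0.580 to 0.673 in WT Tconv, 0.520 to 0.749 in WT Treg, 0.629 to 0.942 in Nr4a-TKO and 0.901 to 1.08 in Foxp3-KO. Of 12 endothelial markers 6 or 7 were below background, Tek, Tie1, Emcn, Cldn5 and Esam in all 4 groups, and their sum was 11.3 to 11.5 in WT Tconv, 11.6 to 13.0 in WT Treg, 11.6 to 13.1 in Nr4a-TKO and 8.96 to 10.3 in Foxp3-KO. With many of these markers below background the sums rest on the others, and the part of such cells in the level of Selp was not tested.

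Lypd6b, a lipid-anchored protein of the Ly6 family that acts on nicotinic acetylcholine receptors, was highest in WT Tconv. Its spots averaged 1.58 and 1.68 in WT Tconv, -0.32 and -0.26 in WT Treg, -3.71 and -2.17 in Nr4a-TKO, and 0.00 and 1.22 in Foxp3-KO. No groups overlapped, and replicates of both precursor groups lay over 1 log2 unit apart. Nr4a-TKO was 6.28-fold below WT Treg, 11.8-fold below Foxp3-KO and 23.8-fold below WT Tconv (-4.57 ± 0.59, adjusted p = 0.00308), and with normexp 3.11-fold, 5.41-fold and 10.0-fold. Single arrays moved these values by over 1.5 times. In the same order they were 3.68, 6.89 and 14.0 without Nr4a-TKO replicate 1 and 10.7, 20.0 and 40.6 without Nr4a-TKO replicate 2. Below Foxp3-KO the fold was 17.9 without Foxp3-KO replicate 1 and 7.70 without Foxp3-KO replicate 2. WT Treg was 1.92 log2 units below WT Tconv (-1.92 ± 0.59, adjusted p = 0.0538), and 10 of 19 other settings brought this under the threshold (adjusted p = 0.00146 to 0.0393), among them leaving out either replicate of Nr4a-TKO or Foxp3-KO. Markers of CD8 and double-positive thymocytes were likewise highest in WT Tconv. Their summed signal over 6 genes was 20.8 and 20.7 in WT Tconv, 5.40 and 3.69 in WT Treg, 3.11 and 5.31 in Nr4a-TKO, and 12.5 and 19.4 in Foxp3-KO, so WT Treg and Nr4a-TKO overlapped and Foxp3-KO lay between them and WT Tconv. Of the 6, 4 were called lower in Nr4a-TKO than in Foxp3-KO (median of the list -2.46) and 3 lower than in WT Tconv (median -1.79), and Rag2 was below background in WT Treg and Nr4a-TKO. Their part in the level of Lypd6b was not tested. In both precursor groups the array with more B cell marker signal, replicate 1, had the lower level for 7 of the 10 genes, all but Gsta4, Cybrd1 and C1ql3. The share over all tested genes was not counted, so this does not set the members apart. Over tested genes the replicate differences of the 2 precursor groups correlated at 0.26. With replicate 1 of both precursor groups left out, a setting chosen after seeing the data, each of these groups was 1 array. Only differences are therefore given. Nr4a-TKO then differed from WT Tconv by -3.80 for Lypd6b and by -4.96 for Pyroxd2. Foxp3-KO differed from WT Treg by 1.51 for Lypd6b, against 0.90 ± 0.59 (adjusted p = 0.401) with all arrays.

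Lad1 encodes ladinin, a protein of the filaments that anchor epithelia to the basement membrane. It was at -3.54 and -3.47 in WT Tconv, 2.46 and 2.16 in WT Treg, -6.27 and -6.15 in Nr4a-TKO, where it was not above background, and 1.66 and 2.22 in Foxp3-KO. Nr4a-TKO was at least 123-fold below WT Treg and at least 94.9-fold below Foxp3-KO, bounds that fell to 26.9 and 21.3 with normexp. WT Treg was 56.3-fold above WT Tconv (5.81 ± 0.20, adjusted p = 0.000129) and Foxp3-KO 43.6-fold (5.45 ± 0.20, adjusted p = 0.000288). Nr4a-TKO was at least 2.18-fold below WT Tconv (adjusted p = 0.000778), a call that ended with normexp background correction (adjusted p = 0.0774). Of 11 thymic epithelial markers 4 or 5 were below background in each group, Krt8, Psmb11 and Foxn1 in all. Their summed signal was 1.07 to 1.25 in WT Tconv and 1.33 to 1.38 in WT Treg. It was 1.72 to 1.88 in Nr4a-TKO and 1.57 to 1.63 in Foxp3-KO. The part of epithelial cells in the level of Lad1 was not tested.

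C1ql3, a secreted protein of the C1q family studied at synapses, was not above background in WT Tconv (-4.63 and -6.66) or Nr4a-TKO (-5.17 and -6.63). It was at -0.20 and -0.21 in WT Treg and at 0.07 and -0.38 in Foxp3-KO, which overlapped. Nr4a-TKO was at least 21.5-fold below WT Treg and at least 22.2-fold below Foxp3-KO, bounds that fell to 5.27 and 5.56 with normexp. WT Treg was at least 20.0-fold above WT Tconv (adjusted p = 0.00538) and Foxp3-KO at least 20.7-fold (adjusted p = 0.00916).

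**Figure D1:**
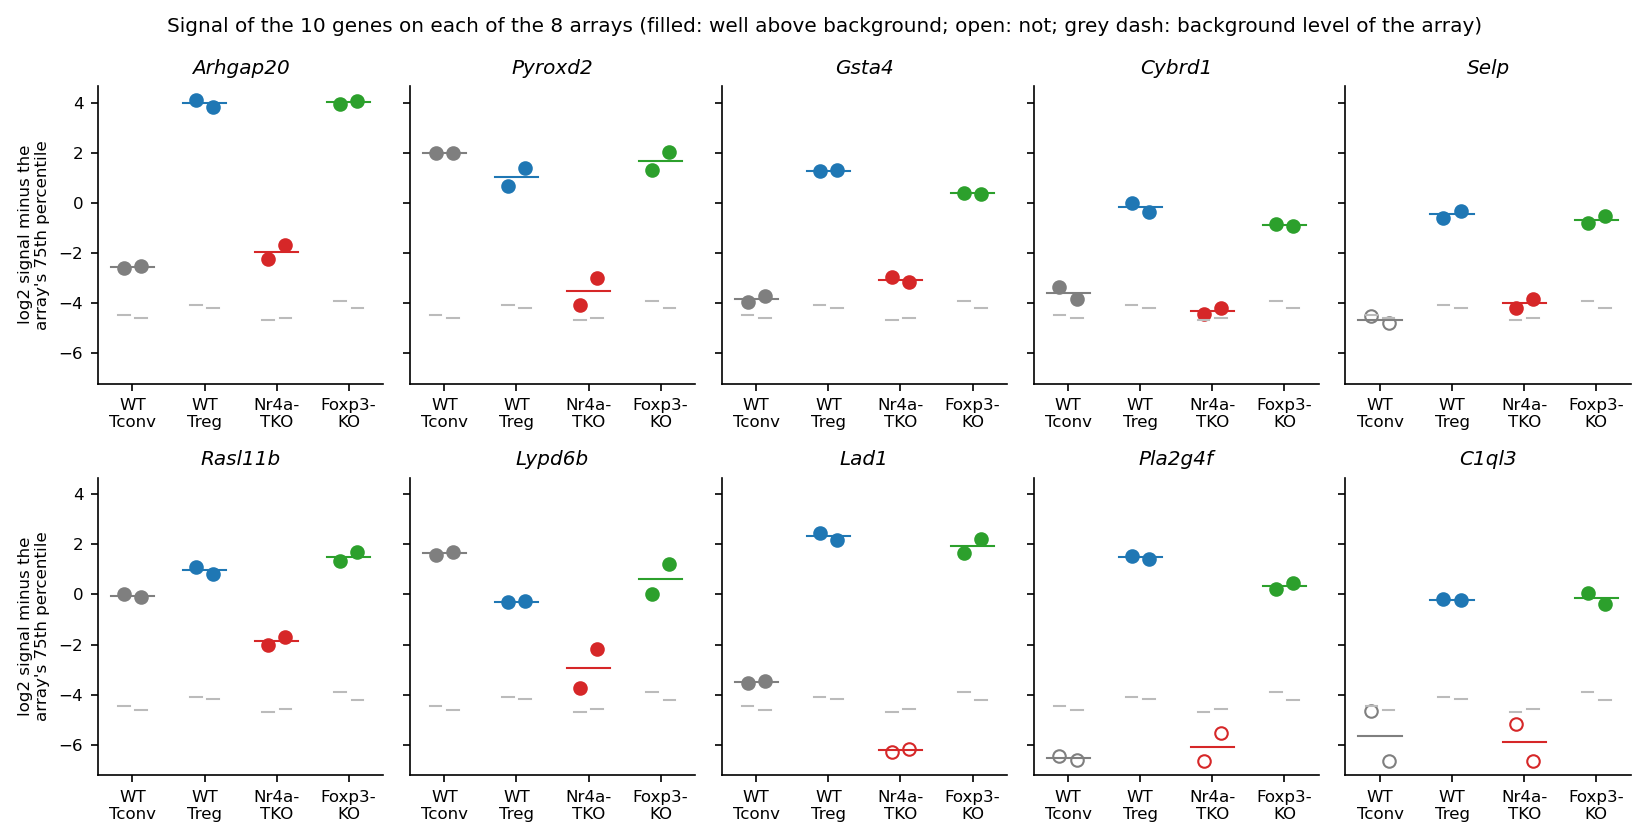
Signal of the 10 genes on the 8 arrays, on the y axis as log2 signal minus the 75th percentile of the array, by population on the x axis; a point is an array, the coloured line the mean of the 2 arrays, an open point a signal not well above background, and the grey dash the background level of that array. Nr4a-TKO is low in every panel, and WT Tconv is as high as WT Treg or higher for Pyroxd2 and Lypd6b and between Nr4a-TKO and WT Treg for Rasl11b, and low in the other 7 panels.

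The spots of 1 probe show how well a single array fixed these values. Gsta4, Selp and Lypd6b had probes printed at 10 places, and the SD among those spots had a median over the arrays of 0.109 for Gsta4, with the highest at 0.310. For Lypd6b the highest was 0.265, so the gap between the Nr4a-TKO replicates, -3.71 and -2.17, was wider than the spread of spots within an array. For Selp the highest was 0.821, on WT Tconv replicate 2, where the probe was not above background. The other 7 genes were read from probes with 1 spot.

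**Figure D2:**
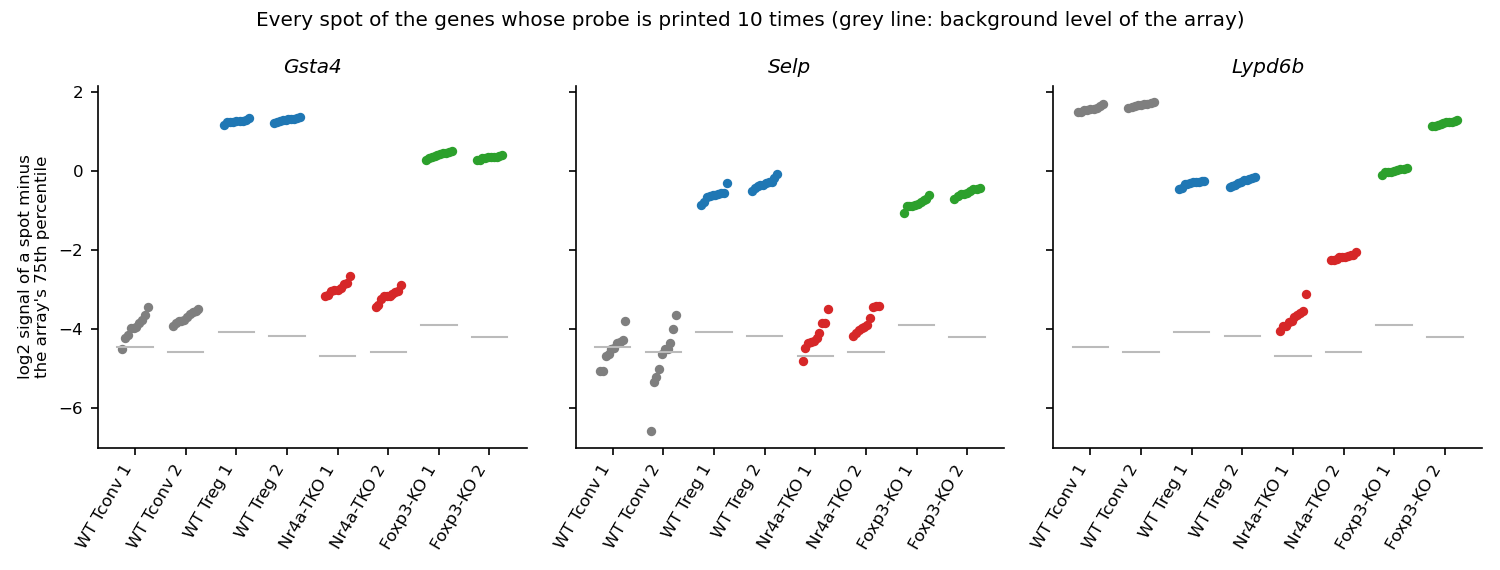
Every spot of the probes of Gsta4, Selp and Lypd6b, on the y axis as log2 signal minus the 75th percentile of the array, by array on the x axis and sorted by value within an array; the grey line is the background level of the array. The spots of an array lie close together above background and spread where the probe is near it, as for Selp in WT Tconv, and the 2 Nr4a-TKO arrays hold separate ranges for Lypd6b.

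The distance from Nr4a-TKO to both comparison groups placed the 10 genes at the far end of the array, as their choice requires. They were among 86 genes (0.637% of those tested) at least 4-fold lower in Nr4a-TKO than in both WT Treg and Foxp3-KO, while 331 genes (2.45%) were at least 4-fold higher than in both. With normexp background correction 7 of the 10 stayed past 4-fold, without Nr4a-TKO replicate 1 there were 9, and Lypd6b was then 1.88 below WT Treg (-1.88). Ranked by the smaller of the drops among 11793 genes above background in both WT Treg and Foxp3-KO, Lad1 was at rank 1, Arhgap20 at 2, Pla2g4f at 4, Pyroxd2 at 5, C1ql3 at 6, Gsta4 at 9, Cybrd1 at 10, Selp at 13, Rasl11b at 26 and Lypd6b at 29. Among the genes outside the set with the largest smaller drop were the cation transporter Slc22a2 (5.53), Adamtsl2 (4.11), the guanylate cyclase subunit Gucy1b1 (3.49), Agr3 (3.41) and Igsf3 (3.31). The Nr4a-TKO mean of Adamtsl2, -5.31, lay under the background level of both arrays but was used as measured, so its drop is not a bound. The smallest among members was that of Lypd6b (2.65), and the next genes below it were Cldn10 (2.65) and Atp1b1 (2.62).

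**Figure D3:**
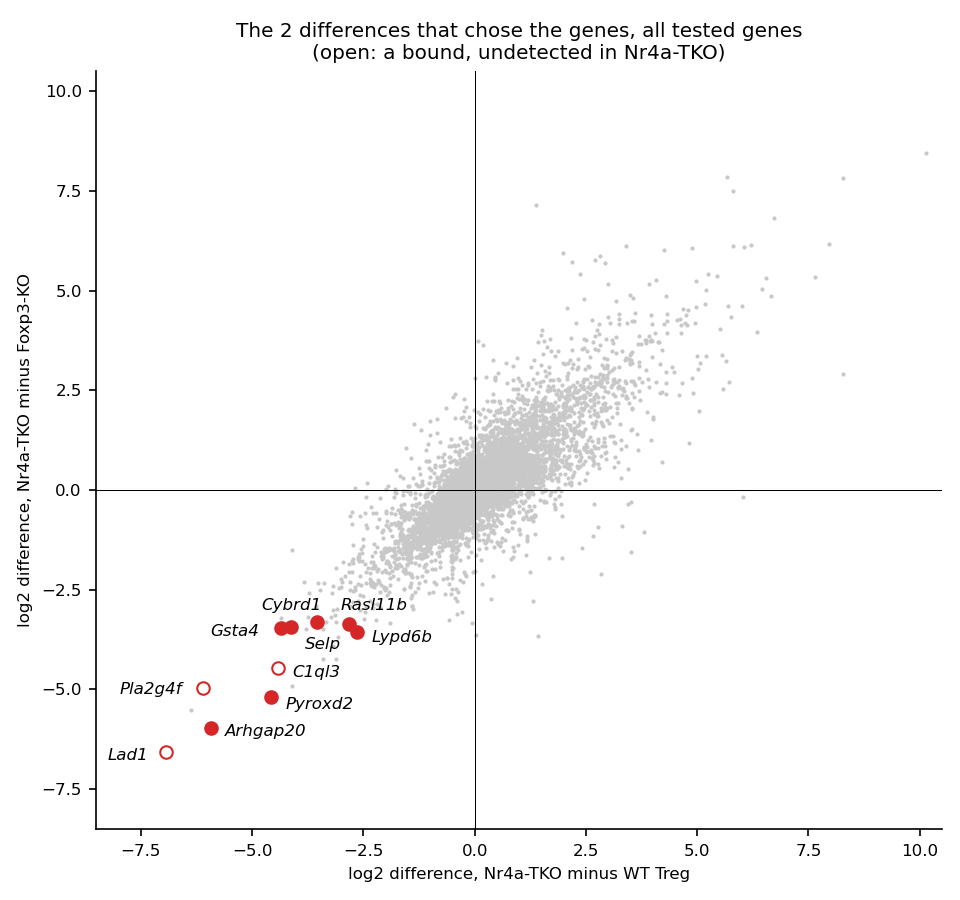
Log2 difference of Nr4a-TKO from WT Treg (x axis) and from Foxp3-KO (y axis) for each of 13496 tested genes (grey) and the 10 genes (red, with names); an open circle is a lower bound on the size, for a gene not detected in Nr4a-TKO. These are the differences on which the genes were chosen, and the 10 lie at the lower left, from Lypd6b at -2.65 and -3.55 to Lad1, lower by at least 123-fold on x and at least 94.9-fold on y.

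Comparison with WT Tconv, whose arrays the choice of genes did not use, split the set. Between WT Treg and WT Tconv, the wild-type lineages, 8 of 10 genes were higher (13.8% of all genes tested were) and 0 were lower (20.9%), with a median of 4.65 log2 units over the members and -0.08 over all genes. Between Foxp3-KO and WT Tconv the same 8 were higher (10.3% of all genes) and 0 were lower (14.8%), with medians of 4.09 and -0.11. The exceptions in both were Pyroxd2 and Lypd6b. These comparisons are not independent of the choice. Each shares its WT Treg or Foxp3-KO arrays, in which the genes were chosen to be high, and both share the WT Tconv arrays. Pla2g4f and C1ql3, undetected in WT Tconv and Nr4a-TKO, were bright enough to test only through WT Treg and Foxp3-KO. Their calls above WT Tconv were thus favoured in advance and are a description only. Leaving out 1 array gave 7 or 8 higher in each, and without any single array of Nr4a-TKO or Foxp3-KO 1 gene, Lypd6b, was called lower in WT Treg. Centring arrays on their medians moved the median of all genes to -0.23 for WT Treg and -0.25 for Foxp3-KO and split all genes 1471 higher and 4233 lower (1866 and 2817 before) for WT Treg and 1133 and 3894 (1388 and 1997 before) for Foxp3-KO, with 8 members higher in both. With normexp the 7 genes low in WT Tconv were 4.02-fold (Selp, a bound) to 46.5-fold (Arhgap20) higher in WT Treg than there, and 2.96-fold (Cybrd1) to 47.5-fold (Arhgap20) higher in Foxp3-KO.

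Between Nr4a-TKO and WT Tconv, in the same row of the slide, 2 of 10 were higher (21.1% of all genes) and 5 lower (27.6%), with a median of -0.48 over members and -0.11 over all genes. The genes were chosen to be low on these Nr4a-TKO arrays, so the calls below WT Tconv are not independent of the choice. The 5 were Pyroxd2, Lypd6b, Rasl11b, Lad1 and Cybrd1, and the 2 were Gsta4 and Selp. Without WT Tconv replicate 1, WT Tconv replicate 2 or Nr4a-TKO replicate 2 only 1 was higher, and without Nr4a-TKO replicate 1 there were 4, with Arhgap20 and Pla2g4f added, the latter undetected in both groups. Between Foxp3-KO and WT Treg, both in the second row, 0 were higher (3.33% of all genes) and Gsta4 alone was lower (3.12%), with medians of -0.10 and -0.01. The genes were chosen to be high in both of these groups, so the few calls between them are not independent of the choice either. Without either WT Treg replicate 0 were lower, and without either Nr4a-TKO replicate 2 were, Gsta4 and Pla2g4f. The largest difference in that comparison that did not pass was that of Pla2g4f (-1.14 ± 0.35), and for C1ql3 the error was wide (0.05 ± 0.76, adjusted p = 0.976). The fit pools the spread of all 4 groups. For C1ql3 the SD was 0.006 in WT Treg and 0.32 in Foxp3-KO, but 1.43 in WT Tconv and 1.03 in Nr4a-TKO, where it was undetected. For Pla2g4f the SD was 0.79 in Nr4a-TKO, also undetected, and 0.08 in WT Treg and 0.15 in Foxp3-KO. Small differences could not be resolved with this pooled error.

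**Figure D4:**
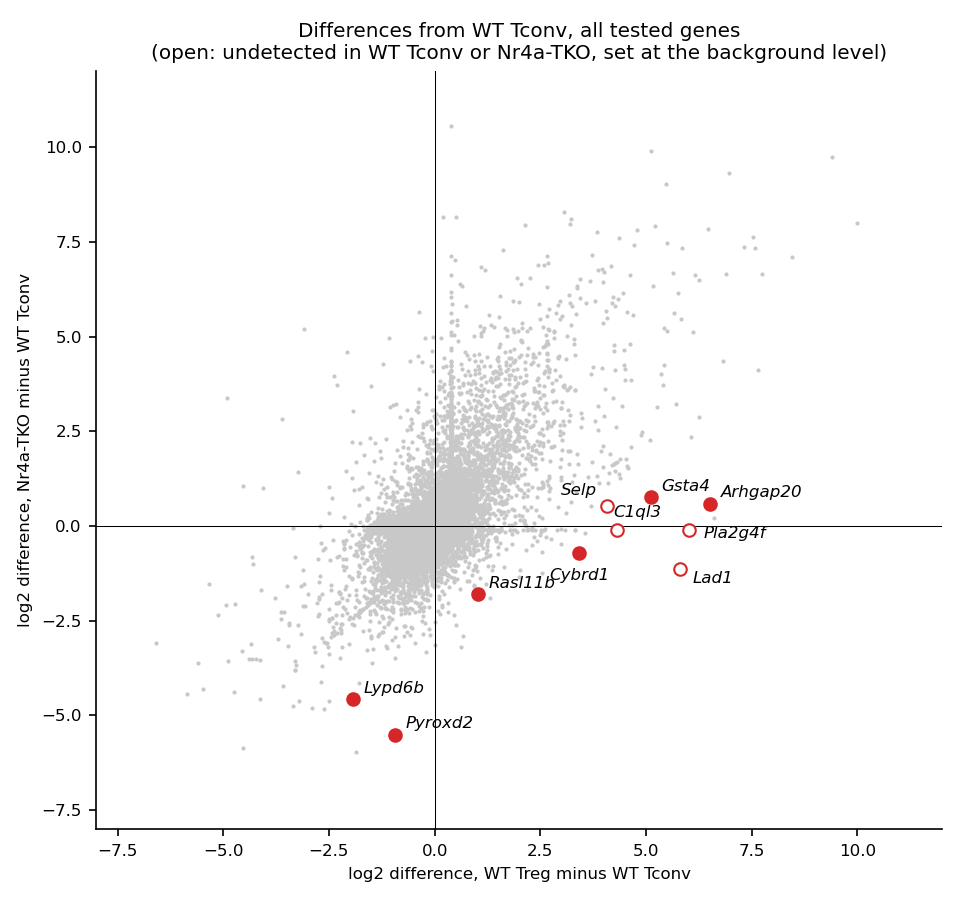
Log2 difference of WT Treg (x axis) and of Nr4a-TKO (y axis) from WT Tconv for each of 13496 tested genes (grey) and the 10 genes (red, with names); an open circle marks a gene not detected in WT Tconv or Nr4a-TKO, placed at the background level. Of the genes named, 7 lie far to the right and close to 0 on the y axis, from Lad1, at least 2.18-fold lower in Nr4a-TKO, to Gsta4 at 0.76, and Pyroxd2 and Lypd6b lie low and to the left of 0.

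Among 406 genes at least 4-fold higher in WT Treg than in WT Tconv, 78 were at least 4-fold lower in Nr4a-TKO than in WT Treg, and 47 were at least 4-fold lower in Foxp3-KO than in WT Treg. The 7 genes low in WT Tconv belonged to the 78 and none of them to the 47. Their choice and definition already placed them among the 406 and the 78. Being chosen as high in Foxp3-KO also favoured their absence from the 47, so their place in these counts is a description only. For 55 of the 78, Foxp3-KO was within 2-fold of WT Treg, and these held 6 of the 7, all but Pla2g4f. Of the 86 genes far below both groups in Nr4a-TKO, 44 had WT Tconv low as well. They are by definition the 44 genes higher in both groups of the second row of the slide, where row and group cannot be told apart. Of the 86, 29 had WT Tconv at least 4-fold above Nr4a-TKO, among them Pyroxd2 and Lypd6b. Rasl11b lay between, since its WT Tconv mean was 3.49-fold above Nr4a-TKO. Markers of regulatory T cells, a list that holds Foxp3 and the gated Il2ra (CD25) and Tnfrsf18 (GITR), did not follow the 7. Their summed signal over 9 genes was 57.8 to 59.8 in WT Tconv and 526 to 539 in WT Treg. It was 344 to 431 in Nr4a-TKO and 233 to 267 in Foxp3-KO, so it was higher in Nr4a-TKO than in Foxp3-KO. All 7 genes were lower in Nr4a-TKO, as their choice requires.

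Over the 8 arrays the 7 genes low in WT Tconv correlated with each other at r = 0.917 to 0.994, and Pyroxd2, Lypd6b and Rasl11b with each other at 0.700 to 0.955. Between these sets r was 0.0810 to 0.947. These values describe 8 arrays in 4 groups that the choice of genes already set apart. Among 1694 tested genes with an SD of at least 1 log2 unit over the arrays, the pattern of Arhgap20 was most like that of Colq (0.995) and Lysmd2 (0.994), and that of Selp like the same pair, Lysmd2 (0.993) and Colq (0.993). Gsta4 was most like Adamts6 (0.998) and Slc22a2 (0.994), Pla2g4f like Tmem121b (0.994) and Slc22a2 (0.993), Cybrd1 like Adgrg1 (0.994) and Pter (0.989), and Lad1 like Igsf3 (0.992) and Ifit1bl1 (0.987). Pter (0.981) was also among the genes most like C1ql3. Pyroxd2 was most like the sodium pump subunit Atp1b1 (0.997) and the T cell receptor adaptor Trat1 (0.994), Lypd6b like 1700025G04Rik (0.994) and Ccnjl (0.987), and Rasl11b like Plcxd2 (0.983) and the prostaglandin receptor Ptger3 (0.982).

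Sequence before the start of transcription was read for the 8 genes listed in the RefSeq promoter table (GRCm38.p6), all but Gsta4 and Lypd6b, over 250 bases. Those of Arhgap20 and Rasl11b are shown as examples of the genes low and not low in WT Tconv, and those of Selp and Cybrd1 because they held a searched motif, which stands in capitals. Arhgap20 lies at chr9:51765101-51765350, Rasl11b at chr5:74195076-74195325, Selp at chr1:164115014-164115263 and Cybrd1 at chr2:71117804-71118053, all on the plus strand.
Arhgap20: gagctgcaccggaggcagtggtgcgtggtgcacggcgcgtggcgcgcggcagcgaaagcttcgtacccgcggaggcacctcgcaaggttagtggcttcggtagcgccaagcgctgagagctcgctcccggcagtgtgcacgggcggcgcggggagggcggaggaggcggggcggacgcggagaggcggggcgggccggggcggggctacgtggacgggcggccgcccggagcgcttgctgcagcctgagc
Rasl11b: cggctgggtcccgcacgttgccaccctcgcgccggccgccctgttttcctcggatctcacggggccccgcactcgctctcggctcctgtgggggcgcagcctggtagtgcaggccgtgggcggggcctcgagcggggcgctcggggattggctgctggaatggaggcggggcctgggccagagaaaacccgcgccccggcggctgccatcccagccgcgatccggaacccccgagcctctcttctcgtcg
Selp: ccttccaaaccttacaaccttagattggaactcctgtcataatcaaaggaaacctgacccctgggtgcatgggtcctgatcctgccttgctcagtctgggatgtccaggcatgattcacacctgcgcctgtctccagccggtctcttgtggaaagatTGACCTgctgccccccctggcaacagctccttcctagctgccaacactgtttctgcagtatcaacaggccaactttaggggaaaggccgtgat
Cybrd1: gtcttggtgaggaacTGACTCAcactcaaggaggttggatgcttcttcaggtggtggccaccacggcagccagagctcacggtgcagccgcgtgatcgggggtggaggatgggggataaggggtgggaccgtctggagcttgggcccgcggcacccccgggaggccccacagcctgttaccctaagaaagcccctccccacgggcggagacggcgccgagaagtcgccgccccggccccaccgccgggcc

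Motifs were searched as exact letters on both strands, and the shares are of 32851 promoters of that length. The site bound by Nr4a receptors as monomers, AAAGGTCA, was in 0 of the 8 (1.34% of all promoters), and its core AGGTCA, which overlaps it, was in Selp alone (14.0%), on the minus strand and so printed as TGACCT, 93 bases before the start. The AP-1 letters TGACTCA were in Cybrd1, 235 bases before the start (4.46% of all promoters). The forkhead letters TGTTTAC (3.17%) and the Runx letters TGTGGT (14.0%) were in none of the 8. The promoters held a median of 62.6% G and C and 15 CpG dinucleotides, against 52.4% and 6 over all promoters, and ran from 53.6% with 3 CpG for Selp to 76.0% with 37 for Arhgap20.

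Genes of the same families were read from lists of 188 genes, of which 181 were on the array and 126 were tested. Of the 126, 0 were at least 4-fold lower in Nr4a-TKO than in both WT Treg and Foxp3-KO, where the share over all genes tested was 0.637%, too low for a count of 0 to set these families apart. Against WT Treg, 31 were higher in Nr4a-TKO (18.5% of all genes tested) and 24 lower (16.4%), with a median of 0.21 and one of -0.01 over all genes. Against Foxp3-KO, 28 were higher (17.8%) and 24 lower (15.6%), with medians of 0.18 and 0.01. With arrays centred on their medians, all genes split 2898 higher and 1418 lower against WT Treg, where 2503 and 2217 stood before, and 2760 and 1375 against Foxp3-KO, where 2401 and 2111 stood. The family counts moved with single arrays. Against WT Treg they were 20 higher and 12 lower without WT Treg replicate 1, 16 and 10 without WT Treg replicate 2, 17 and 12 without Nr4a-TKO replicate 1, and 48 were higher without either Foxp3-KO replicate. Against Foxp3-KO they were 15 and 10 without Nr4a-TKO replicate 1, and 15 were lower without Nr4a-TKO replicate 2.

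In the small GTPase lists, 4 of 24 GTPase-activating genes were higher than in WT Treg and 7 lower, among them Arhgap28 (1.32 ± 0.13, adjusted p = 0.00229) and Arhgap9 (-0.83 ± 0.10, adjusted p = 0.00329). Of 10 Ras-like genes 4 were higher and 2 lower, with Rras2 (-1.24 ± 0.15, adjusted p = 0.00365) and Rras (0.81 ± 0.16, adjusted p = 0.0158) as examples. Of 16 glutathione transferase genes 4 were higher and 3 lower. Gsto1 was lower (-1.79 ± 0.09, adjusted p = 0.000547), and Gstt1, undetected in WT Treg, was at least 11.9-fold higher (adjusted p = 0.00133). Among 17 iron and cytochrome b561 genes 5 were higher, with Cyb561 at 1.17 ± 0.12 (adjusted p = 0.00221), and 3 lower. Of 9 phospholipase A2 genes 3 were higher and 0 lower, and Pla2g12a was at 0.80 ± 0.07 (adjusted p = 0.00155).

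Among the surface and secreted families, 2 of 9 genes of selectins and of enzymes that make their ligands were higher, with the fucosyltransferase Fut7 at 2.32 ± 0.60 (adjusted p = 0.0328). Of 12 Ly6 and Lypd genes 4 were higher and 1 lower, with Ly6a (3.54 ± 0.47, adjusted p = 0.00506) and Ly6c1 (3.22 ± 0.49, adjusted p = 0.00758) opposite to Lypd6b. Of 8 C1q-related genes 1 was higher, C1qtnf4 (0.90 ± 0.18, adjusted p = 0.0161), and 1 lower, C1qtnf12 (-0.79 ± 0.07, adjusted p = 0.00181). Of 11 hemidesmosome and basement membrane genes 2 were higher and 3 lower, with Col7a1 at -1.05 ± 0.19 (adjusted p = 0.0131). Of 10 genes of pyridine nucleotide oxidoreductases, the fold of Pyroxd2, 2 were higher, with glutathione reductase, Gsr, at 1.04 ± 0.17 (adjusted p = 0.00843), and 3 lower.

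**Figure D5:**
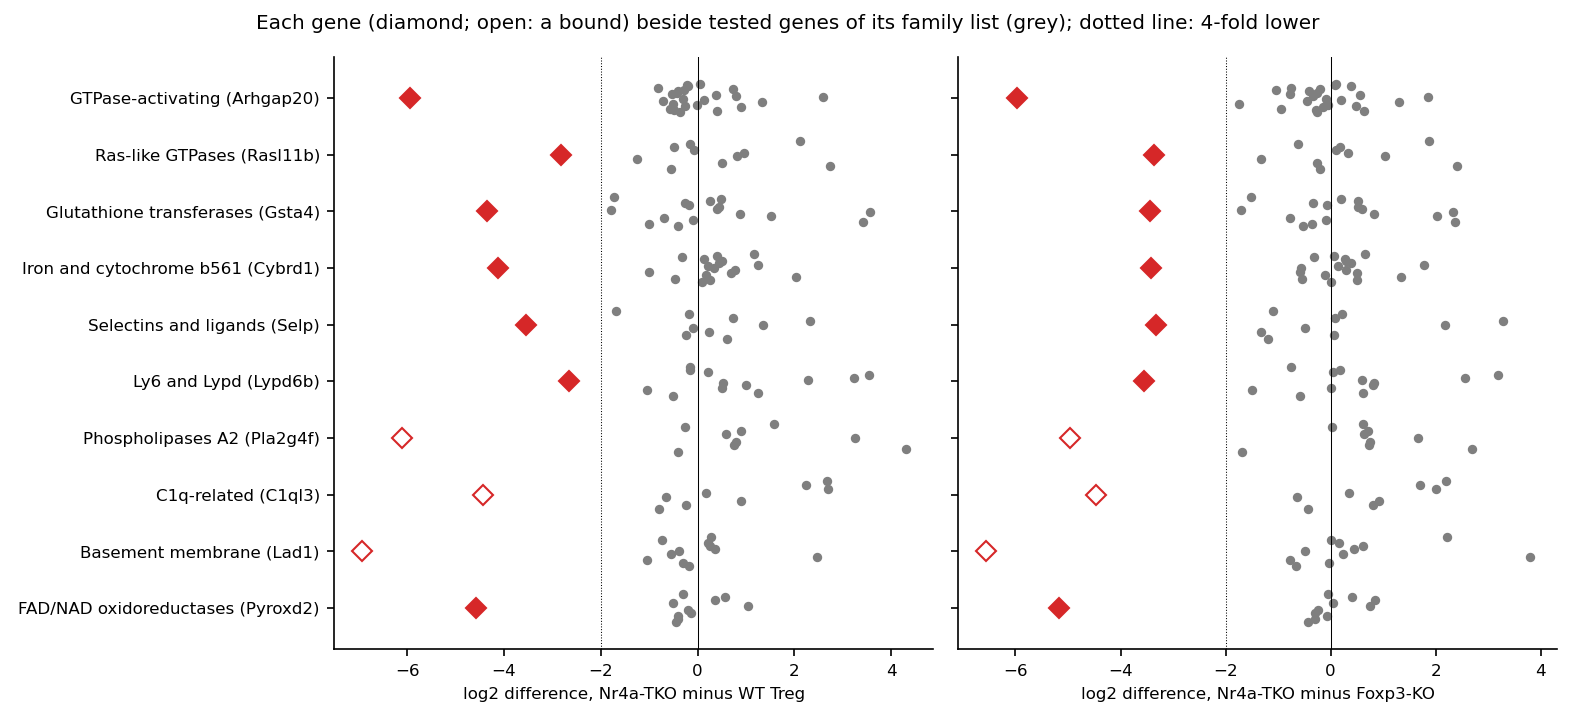
Log2 difference of Nr4a-TKO from WT Treg (left) and from Foxp3-KO (right) on the x axes for each of the 10 genes (diamond; open where the gene was not detected in Nr4a-TKO and the value is a bound) and the tested genes of its family list (grey), one list per row. The dotted line marks a 4-fold lower signal, and 0 of the 126 family genes, beside 0.637% of all genes tested, lie beyond it in both panels.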

How the data were processed

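Per the file headers, the values are processed Cy3 intensities that Agilent Feature Extraction 10.7.1.1 wrote for each spot (genome build mm9), and arrays were not normalized to each other. A matrix of linear intensity that the authors deposited as well was compared with the processed signal over the 13938 to 13943 probes of each array with a matrix value of at least 1. For 99.957% to 100% of these the log2 ratio lay within 0.01 of its median on that array, so there the matrix was a constant multiple of the signal. Dimmer probes were not compared, and the column medians were 0.064 to 0.074.

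Control spots (3671 of 62976 on each array) and flagged spots were left out, 0 were saturated, log2 values had the 75th percentile of the array subtracted, and replicate spots were averaged per probe. Symbols came from the RefSeq accession of a probe (22244 of 23839 matched, 28026 probes with a symbol and 27655 without), and the probe with the highest mean was used. A gene was tested where that probe was well above background on both arrays of at least 1 group. The 4 groups were fitted together (limma 3.58.1, R 4.3.3, lmFit and eBayes, 4 residual degrees of freedom), with Benjamini-Hochberg adjustment over 13496 genes. For genes with no probe well above background on either array of a group, a bound is used. It is against the mean of the higher of the dimmest detected signal and the signal of the probe. The procedure was tested on simulated data. P-values measure the spread between 2 samples a group, pooled over the 4 groups, and the number of arrays limits the precision. Where an array was left out, its group held 1 sample and added no spread.

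The members, lists, comparisons and alternatives were chosen with earlier results of these data known. Named genes are the 10 members, the 6 other genes with the largest smaller drop, the 2 most correlated genes per member, up to 3 genes per family list with the smallest adjusted p against WT Treg, and markers of lists that move with members. Genes outside this rule are Cldn10 and the targeted genes, and Atp1b1 was named under it. Some genes that the rule names are not reported here.

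Alternatives were quantile normalization, median scaling, normexp on the median pixel signal (offset 50), the deposited matrix, other filters and probe rules, an intensity trend, a fit of the groups compared alone, the replicate number as a block and leaving out each array. Leaving out Nr4a-TKO replicate 1 with Foxp3-KO replicate 1 was added after the data were seen.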

Additional observations from a re-analysis of the deposited data

How the results depend on the processing

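Of 38 tested comparisons of the members, 24 kept their direction and their side of the threshold under every one of the 19 other settings that could give a value. Genes called lower in WT Treg than in WT Tconv were 0, and 1 with median scaling, an intensity trend, only probes above background on all arrays, a fit of only those groups, or the replicate block, and 2 with normexp. Normexp also gave 1 higher and 3 lower in Nr4a-TKO against WT Tconv and 3 lower in Foxp3-KO against WT Treg, where the fit of only those groups gave 0. Without the filter on dim probes 1 was higher in Nr4a-TKO than in WT Tconv, and 38 family genes were lower than in Foxp3-KO. Only probes above background on all arrays left 6 members, of which 4 were higher in WT Treg and 4 in Foxp3-KO than in WT Tconv, and 6 were 4-fold below both. The fit of only the groups compared called 6 family genes higher and 6 lower against Foxp3-KO. Without both arrays with most B cell marker signal, chosen after seeing the data, each precursor group was 1 array, so no counts of calls are given for that setting. Leaving out 1 array gave 7 to 8 higher in WT Treg and 0 to 1 lower, 7 to 8 higher in Foxp3-KO and 0 lower, 1 to 4 higher and 4 to 5 lower in Nr4a-TKO, all against WT Tconv, 0 higher and 0 to 2 lower in Foxp3-KO against WT Treg, and 9 to 10 genes 4-fold below both. For family genes it gave 16 to 48 higher and 10 to 28 lower against WT Treg, and 15 to 42 higher and 10 to 28 lower against Foxp3-KO. Signs turned for uncalled values near 0. Leaving out 1 array gave -0.12 to 0.18 for Arhgap20 and -0.18 to 0.27 for C1ql3 in Foxp3-KO against WT Treg, and -0.69 to 0.030 for Pyroxd2 in Foxp3-KO against WT Tconv. Arhgap20 turned to -0.12 without WT Treg replicate 2 and -0.026 without Foxp3-KO replicate 2, and C1ql3 (-0.18) and Pyroxd2 (0.030) turned without Foxp3-KO replicate 1, with or without Nr4a-TKO replicate 1. The causes of these changes were not tested. Replicate numbers were not taken to pair the samples, since correlations of deviations were -0.03 to -0.01 for WT Tconv with each other group, though 0.15 to 0.26 among WT Treg, Nr4a-TKO and Foxp3-KO, and the replicate block changed the call of Lypd6b in WT Treg against WT Tconv (adjusted p = 0.0329). Low groups of Cybrd1, Selp, Lad1, Pla2g4f and C1ql3 lay near or under background, which limits their folds. Gsta4 on WT Tconv replicate 1 (-3.95) and Pyroxd2 on Nr4a-TKO replicate 1 (-4.07) also lay near it. With normexp, Gsta4 in WT Treg above WT Tconv fell from 34.6-fold to 9.91-fold. Pyroxd2 in Nr4a-TKO below WT Tconv fell from 45.5-fold to 17.3-fold.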
